A study of Mus musculus with 6 samples.

Results

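The m6A peaks described here are those over Olig1, Olig2 and Sox10, the genes of 3 transcription factors of the oligodendrocyte lineage, in RNA of mouse brain. Members were the peaks whose summit lay in 1 of 3 windows of the mm9 genome, chr16:91225000-91229500 for Olig2, chr16:91269500-91273000 for Olig1 and chr15:78984500-78995500 for Sox10. These windows, which were drawn around the genes and are not gene ends, held 29 of the 90215 peaks in the 3 deposited lists. Peaks of the lists that shared a base were merged, which gave 12 regions of 43377 in all. Every window held peaks in every list.

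The samples were whole brains, from which polyadenylated RNA was taken. An antibody against N6-methyladenosine (m6A) was used for 3 IP libraries, m6A IP 1, 2 and 3, and 3 input libraries were made without antibody. The labels used here name the tissue only, with no strain, genotype, age or sex, and do not say whether a brain was pooled or shared between replicates. The run names in the file headers carry the letters ctl, which the labels do not explain, so whether the brains were controls for another group is not known here. There was 1 tissue and 1 condition, so the comparisons are between lists, between regions and between the 3 genes. The lists came from 5676427, 6493926 and 6327958 IP tags kept after removal of duplicates and 7436658, 11589632 and 7185922 input tags. Whole brain mixes many cell types, and fewer cells of a type and less RNA per cell cannot be told apart. The lists hold no expression values, so the tissue was not checked against cell type markers.

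Olig1 and Olig2 are basic helix-loop-helix proteins and Sox10 is an HMG-box protein. Olig2 is needed for the oligodendrocyte lineage to be specified, Olig1 acts in later differentiation and remyelination, and Sox10 acts in terminal differentiation, where it drives genes of myelin. Sox10 is also known for its place in the neural crest and in Schwann cells. m6A is laid down on nascent mRNA by a methyltransferase complex that contains Mettl3 and Mettl14, is read by YTH-domain proteins and is best known for its effects on mRNA decay, splicing and translation. It is known to be frequent near stop codons and in long exons.

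The sequence that the methyltransferase prefers has GGACT, written in DNA letters, as its most familiar form, so the sites of that form in the 3 mRNAs are shown with their surroundings. In the longest coding transcript of each gene in GENCODE M21, read on the sense strand only, there was 1 GGACT in Olig1, 2 in Olig2 and 2 in Sox10. Capitals mark the motif and lower case up to 10 bases on each side.
Olig1, 3′ UTR: atcggtgttcGGACTtactaaaata
Olig2, coding sequence, first site: ctggggccatGGACTcggacgccag
Olig2, coding sequence, second site: ttcacaggagGGACTgtgtcctcgt
Sox10, 5′ UTR: caGGACTgggtctcctt
Sox10, coding sequence: aggaccatccGGACTacaagtacca

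The Olig1 site was 867 bases past the end of the stop codon. In Olig2 the sites were at transcript positions 257 and 364, where the coding sequence begins after 252 bases of 5′ UTR. In Sox10 the adenosines were at positions 5 and 858. Of 21877 protein-coding genes, 87.6% had at least 1 GGACT in the longest coding transcript, at a median of 1.01 per kb. The 3 genes were below that median, with 0.463 per kb in Olig1, 0.791 in Olig2 and 0.719 in Sox10.

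The shorter core GGAC, which includes the GGACT sites, was denser in Sox10 than in the Olig genes. Sox10 had 23 in 2780 bases, or 8.27 per kb, and 96.8% of the genes had a lower density. Olig2 had 9 in 2530 bases (3.56 per kb) and Olig1 9 in 2162 bases (4.16 per kb), on either side of the median of 3.93 per kb. Of the GGAC sites in Sox10, 5 lay in the 5′ UTR, 12 in the coding sequence and 6 in the 3′ UTR. In Olig1 the numbers were 0, 5 and 4, and in Olig2 they were 1, 5 and 3. A match describes the letters only. The transcripts belong to GRCm38 and the peaks to mm9, so no site was placed under a peak, and whether an adenosine at any of them was methylated was not tested.

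**Figure D1:**
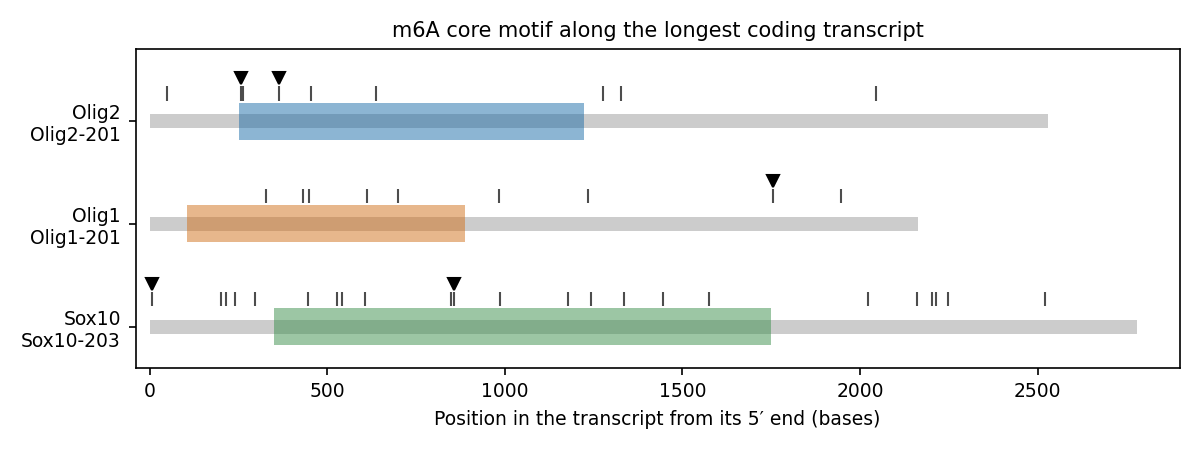
GGAC and GGACT along the longest coding transcript of Olig2, Olig1 and Sox10, by position from the 5′ end in bases. Thick bars are coding sequence, thin bars are UTRs, ticks are the 9, 9 and 23 GGAC sites and triangles are the 2, 1 and 2 sites that read GGACT. Sox10 has the densest ticks, on all parts of the transcript.

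Regions were numbered from the 5′ side of each gene, with the strand taken from GENCODE M21, which puts Olig1 and Olig2 on the plus strand and Sox10 on the minus strand. Of the 12 regions, 7 held a peak of all 3 lists, 1 held peaks of 2 lists and 4 were found in 1 list. Over the whole series 38.6% of regions held a peak of all 3 lists, and for these genes the share was 58.3%, a count too small to call it particular to them. The 7 recurrent regions were 2 in Olig2, 2 in Olig1 and 3 in Sox10. In number of peaks Olig2 was the most uniform of the genes, since each list had exactly 2 peaks there and each peak had its counterparts. The bases they covered did vary, at 1068, 1067 and 630 in m6A IP 1, 2 and 3. The lists had 2, 4 and 3 peaks in Olig1 and 3, 6 and 5 in Sox10.

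Each of the 4 regions seen in 1 list came from m6A IP 2, the list with the most IP and input tags. Over the series, regions found in 1 list were about as many in m6A IP 1 (6860) as in m6A IP 2 (6809), while m6A IP 3 had 3162. The part of depth in the 4 peaks was not tested.

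**Figure D2:**
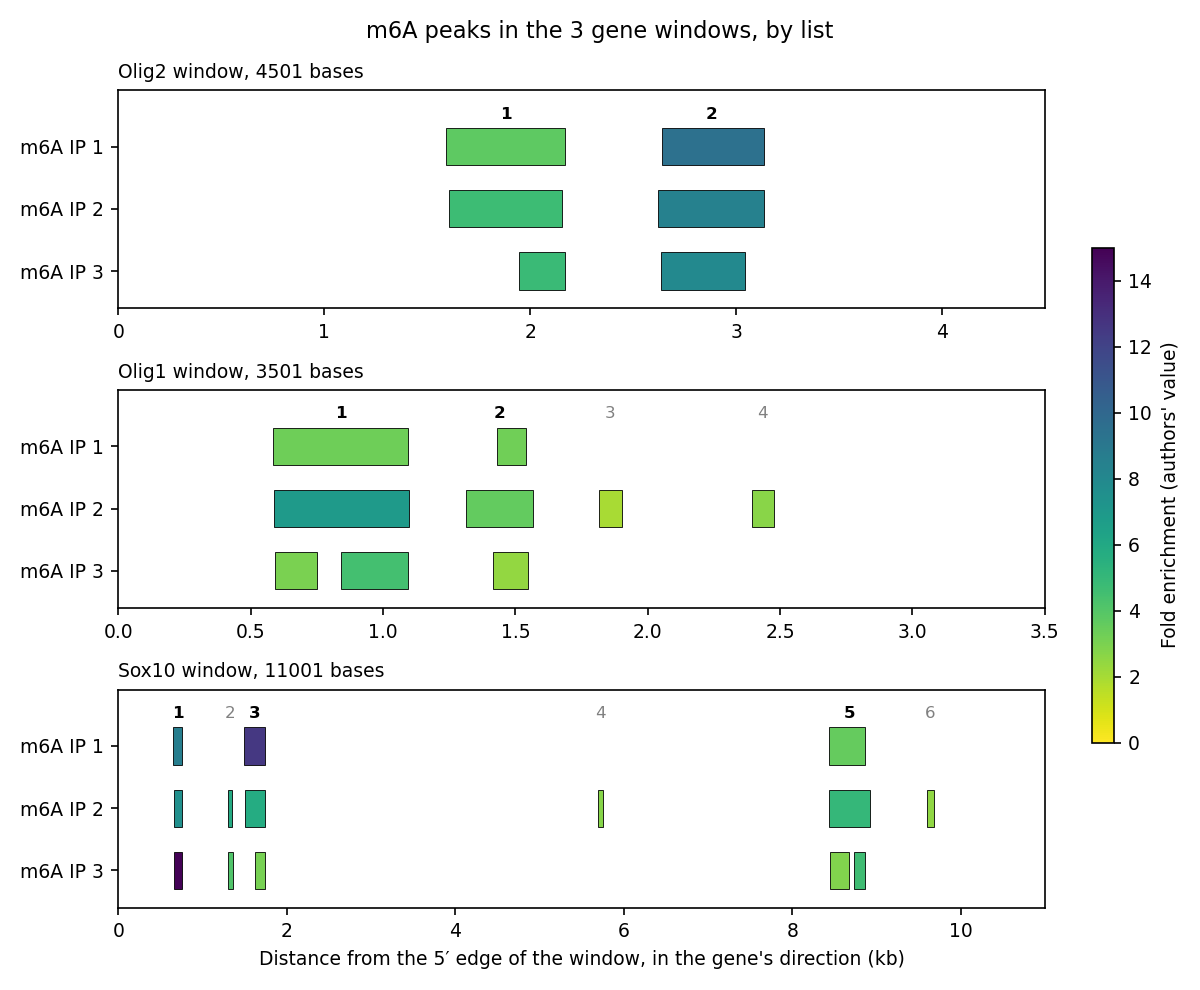
Peaks of m6A IP 1, 2 and 3 (rows) in the Olig2, Olig1 and Sox10 windows, by distance in kb from the 5′ edge of the window in the gene's direction. Boxes are peaks, their color is the authors' fold enrichment, and numbers above them are regions, in bold where all 3 lists had a peak. The 2 Olig2 regions recur in every list, and regions 3 and 4 of Olig1 and 4 and 6 of Sox10 appear in m6A IP 2 only.

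Olig2, the lineage-specifying factor, had the highest mean −log10 q of the 12 regions, 23.7 ± 2.40 (SD, n = 3), in its second region, chr16:91227621-91228136. The pileup, which is the number of IP tags over the highest base of a peak, was 42, 46 and 41 in m6A IP 1, 2 and 3. The local input background, recovered from the deposited values, was 3.55, 4.54 and 4.27 tags. The deposited fold enrichment, (pileup + 1) over (background + 1), was 9.45, 8.49 and 7.97, a mean of 8.64 ± 0.753 (SD, n = 3). The 3 lists thus put the region at nearly the same height and fold, and their summits were at 91227708, 91227708 and 91227712.

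The first Olig2 region, chr16:91226593-91227167, was lower. Its pileups were 31, 30 and 25 tags over backgrounds of 7.63, 5.60 and 4.40 tags. Its fold was 3.71, 4.69 and 4.81, a mean of 4.40 ± 0.607 (SD, n = 3). The lists did not overlap between the regions in pileup or in fold. The second region was higher than the first by 14.3 ± 2.89 tags and by 4.23 ± 1.35 in fold, in 3 of 3 lists, and both differences were larger than their spread between replicates. The regions were 453 bases apart, and the width of the first differed between lists, with peaks of 575, 551 and 220 bases.

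Olig1, the sister gene of Olig2 on chromosome 16, had the highest pileup of the 3 genes in every list. In its first region, chr16:91270084-91270597, the lists had pileups of 48, 53 and 51 tags. The background was 13.7, 6.86 and 10.6 tags, and the fold was 3.32, 6.87 and 4.50, a mean of 4.90 ± 1.80 (SD, n = 3). Height was therefore alike in the lists while the fold in m6A IP 2 stood above the other lists. In m6A IP 3 the region held 2 peaks, of 159 bases with 42 tags and of 252 bases with 51 tags.

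The second Olig1 region, chr16:91270812-91271065, began 214 bases further on. Its pileups were 45, 47 and 44 tags over 13.1, 12.3 and 17.6 tags of background. Its fold was 3.27, 3.61 and 2.42, a mean of 3.10 ± 0.614 (SD, n = 3). The pileup was lower than in the first region in every list, with a mean difference of -5.33 ± 2.08 tags, while the folds of the 2 regions overlapped. Its summits at 91271011, 91271011 and 91271013 were within 2 bases of each other.

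Further toward the 3′ side, m6A IP 2 alone had peaks in the Olig1 window at chr16:91271314-91271402 and chr16:91271893-91271976. The first rested on 44 IP tags over a background of 21.9 tags, with a fold of 1.97, and was the lowest fold of the 29 peaks. The second had 35 tags and a fold of 2.68. Their deposited −log10 q was 2.14 and 4.24.

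Sox10, the driver of myelin genes, had its recurrent regions at opposite ends of its window. The first, chr15:78994742-78994854, lay 724 bases from the 5′ edge of the 11001-base window and was the shortest recurrent region of the 3 genes, at 113 bases. Its pileups were 34, 36 and 27 tags over 3.05, 3.92 and 0.881 tags of background. Its fold was 8.64, 7.52 and 14.9, a mean of 10.3 ± 3.97 (SD, n = 3). The highest fold, in m6A IP 3, came with the lowest pileup of the 3 lists and with an input of 1 tag before scaling.

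The third Sox10 region, chr15:78993756-78994004, varied most between lists. Its pileups were 24, 21 and 13 tags over 0.992, 2.80 and 3.52 tags of background. Its fold was 12.5, 5.79 and 3.10, a mean of 7.14 ± 4.87 (SD, n = 3). Against the median fold of all peaks of the same list, it was above in m6A IP 1 (4.78) and 2 (4.58). It was below in m6A IP 3 (4.55), where the −log10 q was 1.73. Between these regions was region 2, chr15:78994139-78994202, with 13 and 14 tags in m6A IP 2 and 3 and no peak in m6A IP 1. For 13 tags the exact 95% Poisson bounds are 6.92 and 22.2, which cover counting error only.

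At the other end, the fifth Sox10 region, chr15:78986582-78987059, had pileups that overlapped those of the second Olig2 region, over more input. It lay 8798 bases from the 5′ edge of the window. Its pileups were 43, 47 and 44 tags over 11.4, 8.57 and 8.72 tags of background. Its fold was 3.53, 5.01 and 4.63, a mean of 4.39 ± 0.768 (SD, n = 3). The pileups did not overlap those of the first Sox10 region, which were 12.3 ± 4.16 tags lower. The folds did not overlap either and ran the other way, with a mean difference from the first region of -5.95 ± 3.95. The input background was higher at the fifth region than at the first by 6.96 ± 2.02 tags, so the order of these 2 regions depended on whether height or fold was read. The third region, also toward the 5′ side, did not show this reversal. The fifth was above it in pileup by 25.3 ± 6.03 tags, while their folds overlapped, with a mean difference of -2.75 ± 5.55. Single peaks of m6A IP 2 at chr15:78989746-78989810 (23 tags, fold 2.71) and chr15:78985822-78985896 (29 tags, fold 2.50) made up the remainder.

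**Figure D3:**
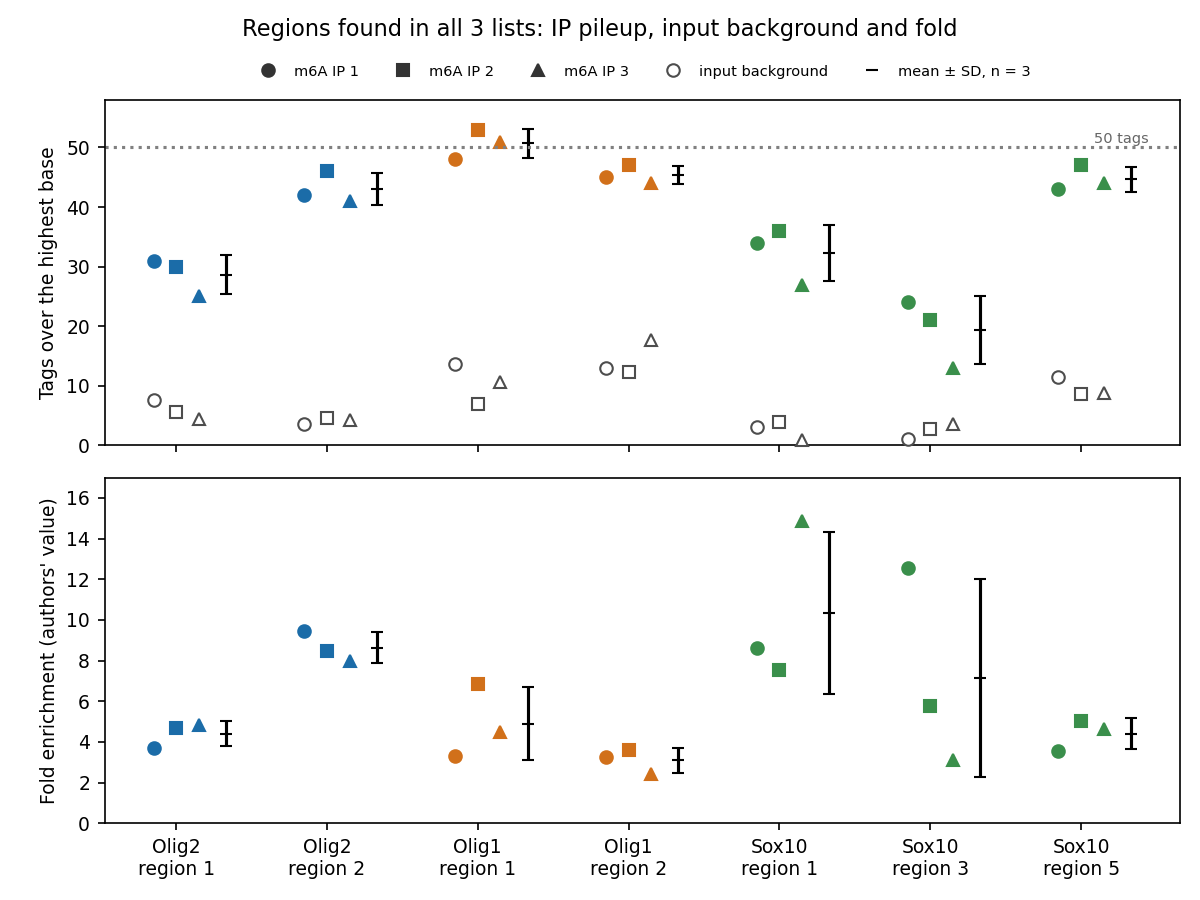
Upper panel: IP pileup (filled) and recovered input background (open) in tags for the 7 regions found in all 3 lists, by list, with the mean and SD of the pileup (n = 3) and a dotted line at 50 tags. Lower panel: the authors' fold enrichment of the same regions with its mean and SD. Pileups of Olig1 region 1 are the highest at 48 to 53 tags, and the folds of Sox10 regions 1 and 3 spread most.

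Between the genes, the highest pileup of a window was compared, a count over 1 base and not a sum over the gene. It is a maximum over 2 peaks a list in Olig2, 2 to 4 in Olig1 and 3 to 6 in Sox10, and the part of peak number and gene length in it was not tested. It was 50.7 ± 2.52 tags in Olig1, 44.7 ± 2.08 in Sox10 and 43 ± 2.65 in Olig2 (SD, n = 3). Olig1 was above Olig2 by 7.67 ± 2.08 tags and above Sox10 by 6 ± 1 tags, in 3 of 3 lists each. Sox10 was above Olig2 by 1.67 ± 1.15 tags, also in 3 of 3 lists. The exact two-sided sign-flip permutation test gave p = 0.25 for each pair (0.25 after Benjamini-Hochberg adjustment over the 3 pairs), the smallest p that 3 lists allow.

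By fold the order was another. The highest fold of a window averaged 11.7 ± 3.77 in Sox10, 8.64 ± 0.753 in Olig2 and 4.90 ± 1.80 in Olig1 (SD, n = 3). It too is a maximum over unequal numbers of peaks. In Sox10 it joined different regions, with 12.5 from region 3 in m6A IP 1 and 7.52 and 14.9 from region 1 in m6A IP 2 and 3. The values of 12.5 and 14.9 stood over recovered backgrounds worth 1.30 and 1 input tags before scaling. Olig1 was below Olig2 in 3 of 3 lists and below Sox10 in 3 of 3 lists, with differences from Sox10 of -9.22, -0.650 and -10.4 in m6A IP 1, 2 and 3. Sox10 and Olig2 did not differ beyond their spread, since Sox10 was higher in m6A IP 1 and 3 and lower in m6A IP 2, and the exact permutation p was 0.50. The local input background at the peak of highest pileup was 10.4 ± 3.44 tags in Olig1 and 9.58 ± 1.62 in Sox10 against 4.12 ± 0.512 in Olig2. In Sox10 that peak was in region 5. At the Sox10 peaks of highest fold the background was 0.992, 3.92 and 0.881 tags in m6A IP 1, 2 and 3. A local background can be an average over a wider window and not a count under the summit. In Olig2 region 2 it was 4.65, 8.10 and 4.85 tags before scaling, none of them whole. The authors kept at most 1 tag per position and strand and extended tags to 50 bases, so at most 50 tags of 1 strand can cover a base, and the pileups of the first Olig1 region were at 48 to 53 tags. The part of this limit in the differences between the genes was not tested.

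Among the 16757 regions of the series found in all 3 lists, 6 of the 7 regions were above the median in pileup and 3 above it in fold. The median of those regions was a mean pileup of 24 tags and a mean fold of 5.10, with quartiles of 3.88 and 6.63. Olig1 region 1 was at percentile 99.5 for pileup and 46.0 for fold, and Olig1 region 2 at 97.3 and 10.3. Sox10 region 5 was at 96.8 and 35.8, and Olig2 region 1 at 65.1 and 36.0. Olig2 region 2 was high on both measures, at percentile 95.1 for pileup and 91.1 for fold, and 17 regions of the series, itself included, were at least as high on both. Sox10 region 1 was at 76.0 for pileup and 96.4 for fold, with 81 such regions, and Sox10 region 3 at 33.6 and 80.8. The same count was 16 for Olig1 region 1 and 96 for Sox10 region 5, both below the median in fold. A small count thus does not by itself mark a region as high on both measures. For Olig1 region 2, Sox10 region 3 and Olig2 region 1 it was 227, 1674 and 2460. These percentiles are descriptions of 7 regions and carry no test.

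**Figure D4:**
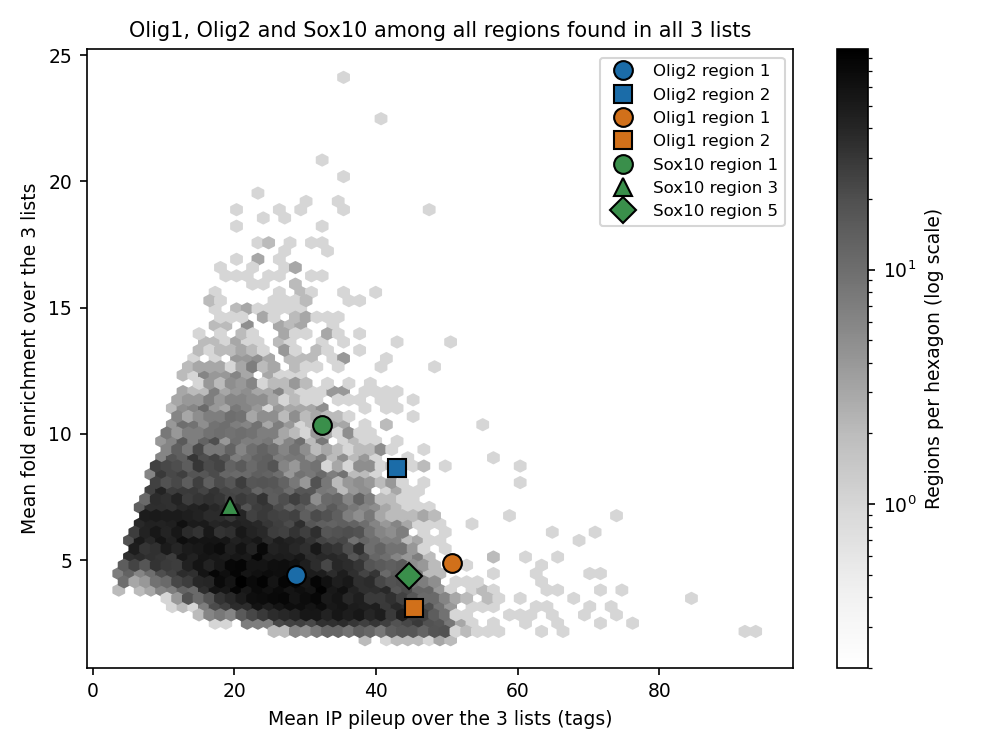
Mean IP pileup in tags (horizontal axis) and mean fold enrichment (vertical axis) over the 3 lists for the 16757 regions found in all 3 lists, as hexagons shaded by the number of regions on a log scale. Colored symbols are the 7 regions of Olig2 (blue), Olig1 (orange) and Sox10 (green). Olig2 region 2 sits at the upper right edge at 43 tags and a fold of 8.64, and both Olig1 regions sit low and to the right.

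Summits spanned fewer bases than the series' median in 5 of the 7 regions. In the series, the summits of a recurrent region spanned a median of 22 bases over the 3 lists. They spanned 2 bases in Olig1 region 2, 4 and 6 bases in Olig2 regions 2 and 1, and 12 and 17 bases in Sox10 regions 1 and 5. The 2 regions with wider spans were Olig1 region 1 with 43 bases and Sox10 region 3 with 105 bases. The latter also had the most variable fold, with a coefficient of variation of 68.2% against a median of 20.7% in the series, at percentile 99.6. The fold of Olig2 region 2 had a coefficient of variation of 8.72%.

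The Olig genes stood alone on their part of chromosome 16. No list had a peak in the 39999 bases between the Olig2 and Olig1 windows. The nearest peaks outside were 99432 bases below the Olig2 window and 100184 bases above the Olig1 window, and each was found in 1 list with 5 and 7 tags. Around Sox10 the nearest peak below the window was 7969 bases away, with 23 tags in m6A IP 1, and was found in 2 lists. The nearest above was 52288 bases away and was found in 1 list, with 13 tags. Inside, the summits nearest to an edge were 1996 and 1788 bases from it in Olig2, 696 and 1089 in Olig1 and 1363 and 717 in Sox10.

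Peaks covered a larger part of the Olig windows than of the Sox10 window. In each list they covered 1068, 1067 and 630 bases of Olig2, 619, 939 and 545 bases of Olig1 and 777, 1002 and 626 bases of Sox10. That is 20.5% ± 5.61, 20.0% ± 5.98 and 7.29% ± 1.72 of the windows (SD, n = 3). The shares depend on how the windows were drawn and on introns: the longest coding transcript has 1 exon in Olig1, 2 in Olig2 and 5 in Sox10. Among stretches of the same length that held at least 1 region found in all 3 lists, 21.3% held 2 or more at the length of the Olig2 window and 19.4% at that of the Olig1 window, and 9.25% held 3 or more at that of the Sox10 window. These stretches were laid end to end along the chromosomes and cut through genes, which the windows do not.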

How the data were processed

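The deposited files were 3 peak lists, 1 per IP library. Per the submitters' processing notes, tools included TopHat2 2.1.0 and MACS2 2.1.0, with build mm9. Per the file headers, the authors called peaks in each replicate against 1 input with MACS 2.1.0.20151222 (q-value cutoff 0.05, tags extended to 50 bases, 1 tag kept per position). The deposited pileup is a coverage signal in tags, fold enrichment is the authors' ratio of IP to local input, and strength is a deposited −log10 of the p-value and of the q-value. How reads were aligned is not given in the sources used here.

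Member peaks were found by summit and merged at 1 shared base (Python 3.11.15, pandas 2.3.3, scipy 1.17.1). Merging was tested on simulated lists of well separated single peaks with the same width in each list. Split peaks and peaks of unequal width, as in some regions here, were not covered by it. A region's values in a list are those of its highest peak there. Background was recovered as (pileup + 1) / fold − 1. It is the local background of the peak caller, with windows of 1000 and 10000 bases, and need not be a count of tags under the summit. A Poisson p-value from it was within 6.71e-05 of each deposited −log10 p-value, and 17 of the 29 peaks gave whole input tags within 0.01. Over all peaks of m6A IP 1, 2 and 3 the share that did so was 63.6%, 68.8% and 61.8%. Intervals are 95% exact Poisson and cover counting error only.

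Every region of the 3 genes is named, and those in all 3 lists are described in full. The genes and windows were chosen with earlier results of these data known. The labels do not say that replicates came from separate animals, so SDs may be technical. The annotation at hand was on GRCm38, so exons and UTRs under peaks are not reported and a planned list of other lineage genes was not used. Alternatives changed the threshold, overlap, gap, list length, window rule and scaling and left out each replicate.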

Additional observations from a re-analysis of the deposited data

How the results depend on the processing

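The counts of regions found in all 3 lists (2 in Olig2, 2 in Olig1, 3 in Sox10) depended on the threshold. Where the −log10 q had to reach 10 they were 1, 0 and 1, and with a fold of at least 4 also 1, 0 and 1. Over all peaks of m6A IP 1, 2 and 3 the median −log10 q was 6.09, 5.90 and 5.29. The median fold was 4.78, 4.58 and 4.55. The share of all regions of the series left under each threshold is not given here. Whether the loss is particular to these genes was therefore not tested. Under both thresholds the regions left were Olig2 region 2 and Sox10 region 1, whose lowest fold in any list was 7.97 and 7.52. Where peaks had to overlap by 50% of each, the counts were 1 in Olig2, 1 in Olig1 and 2 in Sox10, and Olig2 region 1, Olig1 region 1 and Sox10 region 3 were lost. The share of all regions kept under this overlap rule is not given here either, so whether that loss is particular to these genes was not tested. Merging across gaps of up to 100 bases, lists of equal length and counting any base inside the window left all 3 counts as they were. Leaving out 1 replicate and requiring both others gave 2 in Olig2, 2 in Olig1 and 3 to 4 in Sox10. The highest pileups and the sign of their differences held under every alternative run on them: without 1 replicate the mean was 41.5 to 44 tags in Olig2, 49.5 to 52 in Olig1 and 43.5 to 45.5 in Sox10. The differences were then 6.50 to 8.50 tags for Olig1 over Olig2, 5.50 to 6.50 for Olig1 over Sox10 and 1 to 2 for Sox10 over Olig2. In input background at the peak of highest pileup, Olig1 exceeded Sox10 by 0.810 ± 2.19 tags (SD, n = 3), less than the spread. Differences between genes were taken within each list throughout. For IP against input, no paired analysis was possible because the lists hold no separate values for the input libraries, and each list already sets 1 IP against 1 input. Depth limits the smaller regions: at 13 tags, counting error alone allows 6.92 to 22.2.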
